A study of Rattus norvegicus with 4 samples.

Results

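The miR-23, miR-27 and miR-24 microRNAs (miRNAs) were examined in exosomes, vesicles shed by cells, from the serum of male rats. The 6 members were taken by their names on the array, out of 719 rat miRNAs: rno-miR-23a-3p, rno-miR-27a-3p and rno-miR-24-2-5p of one genomic cluster, rno-miR-23b-3p and rno-miR-27b-3p of another, and rno-miR-24-3p, which both clusters make. The prefix rno, for Rattus norvegicus, is left out from here on. Each of 4 groups was hybridised to 1 array in 1 colour. The naive group had no injection and is day 0 in the series' design text; the light group was taken at day 35 and the moderate and severe groups at day 49. Per the labels the tumour-bearing rats were injected with a hepatocellular carcinoma (HCC) cell line, while the design text speaks of exosomes given as 1 dose. The labels do not name the cell line, the number of rats behind an array or whether sera were pooled. Disease and day differ together from the naive group and cannot be told apart. As each group has 1 array, differences have no replicate check and no p-value is given. Errors written with ± are standard errors over the replicate spots of an array and cover spot noise only.

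miRNAs of such a cluster are cut from one primary transcript, each from its own hairpin, and a hairpin can yield a miRNA from its 5′ arm and one from its 3′ arm. A mature miRNA finds target messenger RNAs mainly through its seed, bases 2 to 8. The miR-23, miR-27 and miR-24 miRNAs are present in many cell types, among them endothelium, blood cells and liver. miR-23 is known to repress glutaminase, shown in human cells, and in mouse miR-23 and miR-27 act in the growth of vessels. miR-27 represses PPARγ and with it the formation of fat cells, and miR-24 is known as an inhibitor of cell division in human cells. In human serum miR-23a-3p serves as a reference for haemolysis, against which the red-cell miRNA miR-451 is read.

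The mature sequences are shown because the clusters mirror each other and because the closeness of their sequences limits what a probe can tell apart. They were taken from RefSeq (build GRCr8), in which all 6 members were matched. Capitals mark the seed.

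miR-23a-3p: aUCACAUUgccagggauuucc
miR-23b-3p: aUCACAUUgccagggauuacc
miR-27a-3p: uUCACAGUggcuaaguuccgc
miR-27b-3p: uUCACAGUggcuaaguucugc
miR-24-3p: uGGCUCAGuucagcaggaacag
miR-24-2-5p: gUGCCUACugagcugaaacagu
miR-24-1-5p: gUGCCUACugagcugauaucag

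miR-23a-3p and miR-23b-3p differ at 1 of 21 bases, U19A, counted from 1 at the 5′ end with the base of miR-23a-3p first. miR-27a-3p and miR-27b-3p also differ at 1 of 21, C19U in the same notation. Each pair shares its seed, and in the RefSeq table of 693 mature rat miRNAs no other miRNA carries the seed of miR-23 or of miR-27. How far a probe for one member of a pair also captures the other was not tested, so a value for miR-23a-3p, miR-23b-3p, miR-27a-3p or miR-27b-3p may hold signal of its near-identical partner. The seeds of miR-27 and miR-23 are UCACAGU and UCACAUU, and miR-27a-3p differs from miR-23a-3p at 10 of 21 bases.

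The hairpins of miR-23a, miR-27a and miR-24-2 lie in that order along the minus strand of chromosome 19, within 389 bases (chr19:40859455-40859843, GRCr8), and overlap no other gene of the RefSeq table. Those of miR-23b, miR-27b and miR-24-1 lie in the same order on the minus strand of chromosome 17, within 814 bases (chr17:1818669-1819482, GRCr8), inside the protein-coding gene Aopep. The miR-24-1 hairpin also overlaps Fancc and Mir3074. miR-24-3p has the same sequence in both clusters, so its signal belongs to neither alone. miR-24-2-5p, the other arm of the chromosome 19 hairpin, shares its first 16 bases and its seed with miR-24-1-5p, the other arm of the chromosome 17 hairpin.

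The scanner software detected 122 to 176 miRNAs on an array, and 111 on all of them. The moderate array was the brightest, with a summed signal 1.58 times the naive one, while light had 0.643 times and severe 0.694 times. The labelling spike-ins, RNAs added in known amount, read 0.983, 0.899 and 0.637 times their naive level on the light, moderate and severe arrays. Before log2 was taken, each signal was scaled to its array's 75th percentile among the miRNAs that all arrays detected. Across the miRNAs measured on both arrays, the median log2 difference from naive was 0.27 for light, 0.22 for moderate and −0.11 for severe. Under 6 other scalings it lay between −0.63 and 0.15 for light, between 0 and 0.89 for moderate and between −0.79 and −0.12 for severe. A member's distance from this median does not depend on the scaling, except under quantile normalization, and is given beside each difference. Fewer cells releasing a miRNA and less of it per vesicle cannot be told apart in such bulk RNA.

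In the chromosome 19 cluster miR-23a-3p, the first hairpin, read 3702 ± 31.9 intensity units on the naive array, 2561 ± 26.2 on light, 7734 ± 56.9 on moderate and 2406 ± 15.6 on severe. Unscaled, its order was therefore moderate, naive, light and severe. Scaled, it stood at 5.56, 7.19, 8.11 and 5.79 times the 75th percentile, with moderate highest, light next, and naive and severe close together. The log2 difference from naive was 0.37 ± 0.02 for light, 0.54 ± 0.02 for moderate and 0.06 ± 0.02 for severe. The severe value was below 0 under 7 of 14 alternatives, down to −0.62 without scaling. The light value was below 0 without scaling (−0.53), with spike-in scaling (−0.51) and with the brightest probe (−0.01), and was 0 with quantile normalization. Relative to the median miRNA these were 0.10, 0.32 and 0.17 higher. With normexp, a model-based background correction, the light and severe values lay below the median miRNA (−0.20 and −0.26), and with quantile normalization the light value equalled it.

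miR-27a-3p, from the middle hairpin of the same cluster, read 2303 ± 19.2 on naive, 2283 ± 35.0 on light, 6119 ± 29.0 on moderate and 2569 ± 19.6 intensity units on severe. The scaled signal was 3.46 on the naive array and 6.41, 6.42 and 6.19 on the light, moderate and severe arrays. With this scaling the 3 tumour arrays thus lay above naive and close to each other, at 1.85-fold, 1.86-fold and 1.79-fold the naive value. As log2 differences from naive these were 0.89 ± 0.03, 0.89 ± 0.01 and 0.84 ± 0.02. Without scaling the light difference was −0.01, while moderate and severe stayed above 0 under all 6 other scalings. The closeness of the tumour arrays depended on the scaling. Spike-in scaling gave 0.01, 1.56 and 0.81 for light, moderate and severe, and quantile normalization 0.37, 0.47 and 0.75. Relative to the median miRNA miR-27a-3p was 0.62, 0.67 and 0.95 higher, and it stayed above the median miRNA under all 14 alternatives on each tumour array. It ranked 4 of 117 miRNAs on the light array, 9 of 126 on moderate and 27 of 109 on severe, counted from the largest rise.

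On the chromosome 17 cluster the signals were dimmer, but levels of different probes cannot be set against each other. miR-23b-3p read 299 ± 2.64 on naive, 189 ± 2.67 on light, 641 ± 4.90 on moderate and 269 ± 3.01 intensity units on severe. Scaled, it stood at 0.449, 0.531, 0.672 and 0.648, so naive was lowest and the 2 arrays of day 49 highest. Its log2 difference from naive was 0.24 ± 0.02, 0.58 ± 0.02 and 0.53 ± 0.02 for light, moderate and severe. The light value was below 0 under 5 of 14 alternatives, among them median scaling (−0.09), no scaling (−0.66) and spike-in scaling (−0.64), and the severe value was −0.15 without scaling. Relative to the median miRNA it was −0.03, 0.36 and 0.64, and the light value turned above 0 with quantile normalization (0.15). On the severe array its probes differed, at 0.28 and 0.59 above naive, whereas on the moderate array they gave 0.59 and 0.58.

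miR-27b-3p read 267 ± 2.50 on naive, 189 ± 1.85 on light, 642 ± 2.70 on moderate and 317 ± 3.36 intensity units on severe. Its scaled signal was 0.401, 0.532, 0.673 and 0.763. With this scaling severe was the highest array, which held for no other member. The lead of severe over moderate, log2 0.18, turned under all other scalings but median scaling, down to −1.02 without scaling. The log2 differences from naive were 0.41 ± 0.02, 0.75 ± 0.01 and 0.93 ± 0.02, of which the first became −0.50 without scaling and −0.47 with spike-in scaling. Relative to the median miRNA they were 0.14, 0.52 and 1.04, and on the severe array both probes gave 0.93 above naive. The moderate and severe values stayed above the median miRNA under all 14 alternatives, while the light value was −0.02 with normexp.

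miR-24-3p, the third hairpin's product, read 2955 ± 21.4 on naive, 1978 ± 15.9 on light, 5437 ± 46.5 on moderate and 1520 ± 12.9 intensity units on severe. Scaled, it stood at 4.44, 5.56, 5.70 and 3.66, with severe the lowest array. The log2 difference from naive was 0.32 ± 0.02 for light, 0.36 ± 0.02 for moderate and −0.28 ± 0.02 for severe. The light sign turned with median scaling, without scaling, with spike-in scaling, with quantile normalization and with the brightest probe, and the moderate sign with quantile normalization. On the severe array miR-24-3p lay below naive under all 14 alternatives, between −0.96 and −0.10. Relative to the median miRNA it was 0.05, 0.14 and −0.16, and the first 2 of these turned below 0 with quantile normalization, the first also with normexp.

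**Figure D1:**
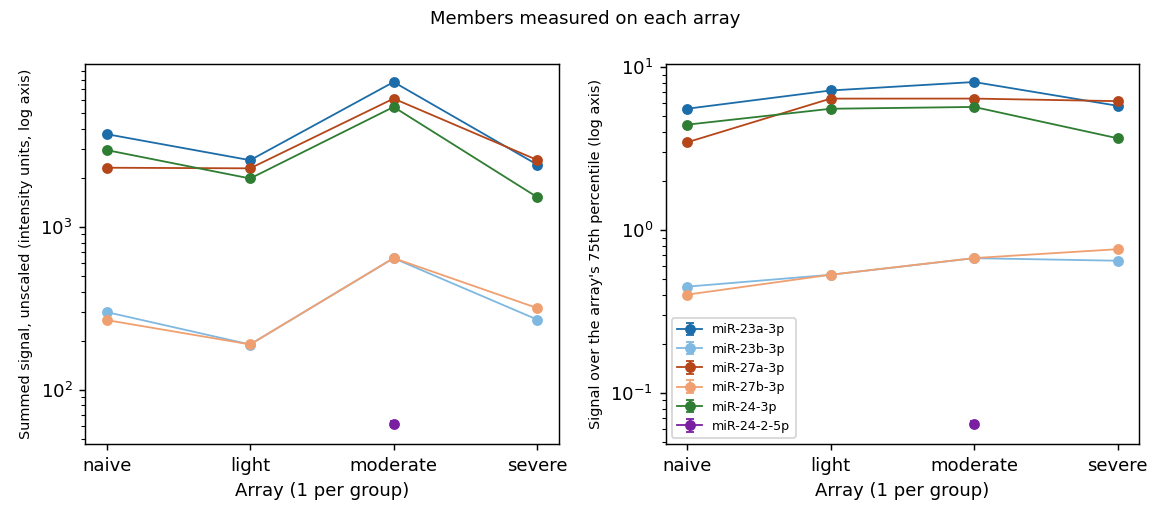
Signals of the members by array, on log axes, unscaled in intensity units (left) and divided by the array's 75th percentile (right), where an array measured them; bars, mostly hidden by the points, are standard errors over spots. The unscaled moderate array is high for every member, and after this scaling miR-27b-3p is highest and miR-24-3p lowest on the severe array. Under all other scalings but median scaling, miR-27b-3p is higher on the moderate array than on severe.

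A difference of at least 2-fold was then counted, bounds included. The shares of all miRNAs, here and for severe against moderate, are over those measured on at least 1 of the arrays compared. These include miRNAs whose bound gave no direction and which could not be called, and that makes the shares lower. On the light and severe arrays 5 members had a value, since miR-24-2-5p was below the floor there and on naive. On the light array 0 of these 5 passed 2-fold in either direction, where 1.56% of 128 miRNAs were higher and 0.781% lower. On the moderate array 1 member, miR-24-2-5p, was higher and 0 were lower, against 5.42% and 1.2% of 166 miRNAs. On the severe array 0 of 5 passed in either direction, although 24.1% of 137 miRNAs were higher and 18.2% lower. The median over the 5 members measured on both arrays was 0.37 for light, 0.58 for moderate and 0.53 for severe, beside the medians of all miRNAs given above. Of these 5, 4, 5 and 4 lay above the median of all miRNAs, but with normexp 1 did on light and 3 on severe, and with quantile normalization 3 on light.

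The 2 arrays of day 49 set severe against moderate disease at the same day. miR-24-3p was 1.56-fold lower on the severe array (log2 −0.64 ± 0.02) and miR-23a-3p 1.40-fold lower (−0.48 ± 0.01), both below moderate under all 14 alternatives. miR-27a-3p and miR-23b-3p each differed by −0.05, and miR-27b-3p by 0.18 ± 0.02, with signs that turned with the scaling: miR-27a-3p with median scaling and quantile normalization, miR-23b-3p with median scaling, and miR-27b-3p under all but median scaling. The median of all 115 miRNAs was −0.41. Relative to it miR-23a-3p stood at −0.08 and miR-24-3p at −0.23, so with this processing most of their fall was shared with the median miRNA. miR-27a-3p, miR-23b-3p and miR-27b-3p stood at 0.35, 0.35 and 0.59, but each of these lay below the median miRNA with normexp. The median of all miRNAs was 0.16 with normexp. miR-23a-3p and miR-24-3p then stood at −0.87 and −0.99 from it, so there their fall was not shared. Among the members 0 of 6 were at least 2-fold higher or lower here, where 17.8% of 169 miRNAs were higher and as many lower.

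**Figure D2:**
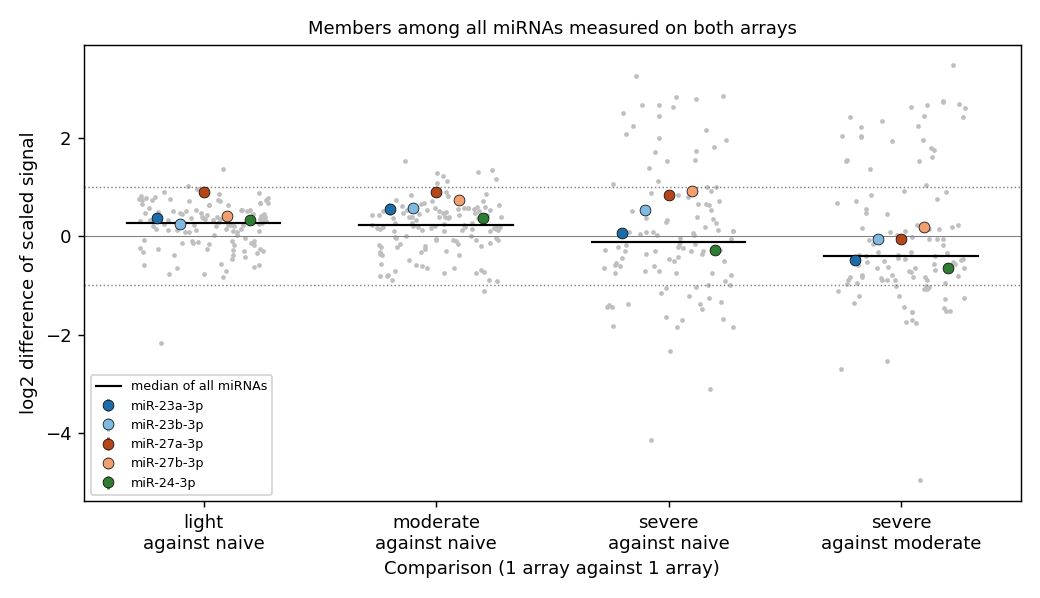
Differences of log2 scaled signal for all miRNAs measured on both arrays (grey points, spread sideways for sight), their median (black line) and the 5 members measured on all arrays (coloured, with standard errors over spots that the points mostly hide); dotted lines mark 2-fold. The grey cloud is wider in the comparisons with the severe array, while the members stay within the dotted lines.

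Partners of one cluster were then set against each other, as the difference between their log2 differences. This cancels the scaling and the brightness of each probe. As a yardstick, the probes of a miRNA with 2 bright probes gave log2 differences that were apart by a median of 0.06 for light against naive, 0.05 for moderate and 0.10 for severe, and 95% of such miRNAs lay within 0.23, 0.26 and 0.69. That is a technical spread within arrays, not a spread between rats.

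In the chromosome 19 cluster the miR-27a-3p and miR-23a-3p values did not keep step. miR-27a-3p gained 0.52 ± 0.03 on miR-23a-3p on the light array, 0.35 ± 0.02 on moderate and 0.78 ± 0.02 on severe, which is 1.43-fold, 1.27-fold and 1.72-fold. Each of these exceeded the 95% yardstick of its comparison, and all 4 pairings of 1 probe with 1 probe had the same sign. Over the alternatives the severe value ranged from 0.71 to 0.85. miR-27b-3p also gained on miR-23b-3p, by 0.16, 0.17 and 0.40, and these lay within the yardstick.

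miR-24-3p lost ground against both miR-27 members. Against miR-27a-3p it stood at −0.57 ± 0.03, −0.53 ± 0.02 and −1.12 ± 0.02 on the light, moderate and severe arrays. Against miR-27b-3p it stood at −0.08, −0.38 and −1.20 ± 0.03, the last being 2.30-fold. Of these 6 values, −0.08 alone lay within the yardstick, and −0.38 did too with normexp (−0.11). The 6 signs held under all alternatives, though scalings other than quantile normalization cancel here and could not turn them. Against miR-23a-3p it differed less, by −0.05, −0.18 and −0.34, all within the yardstick, and against miR-23b-3p by 0.08, −0.22 and −0.81, of which −0.81 alone exceeded it and became −0.56 with one pairing of probes. On the severe array the order from highest to lowest difference from naive was thus miR-27b-3p, miR-27a-3p, miR-23b-3p, miR-23a-3p and miR-24-3p, spanning 0.93 to −0.28. Neighbours in this order were apart by less than the yardstick.

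Between the clusters, miR-27a-3p exceeded miR-27b-3p by 0.48 ± 0.03 on the light array, past the yardstick, by 0.15 on moderate and by −0.09 on severe. miR-23a-3p differed from miR-23b-3p by 0.13 on light and −0.04 on moderate, and lay 0.47 ± 0.03 below it on severe. The severe value was inside the yardstick and ran from −0.55 to −0.18 over the pairings of probes. The light difference of miR-27a-3p from miR-27b-3p shrank to 0.02 with quantile normalization, which gives the bright and the dim miRNAs different corrections. Capture of the near-identical partner by the probes of each pair was not tested and may enter these values.

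**Figure D3:**
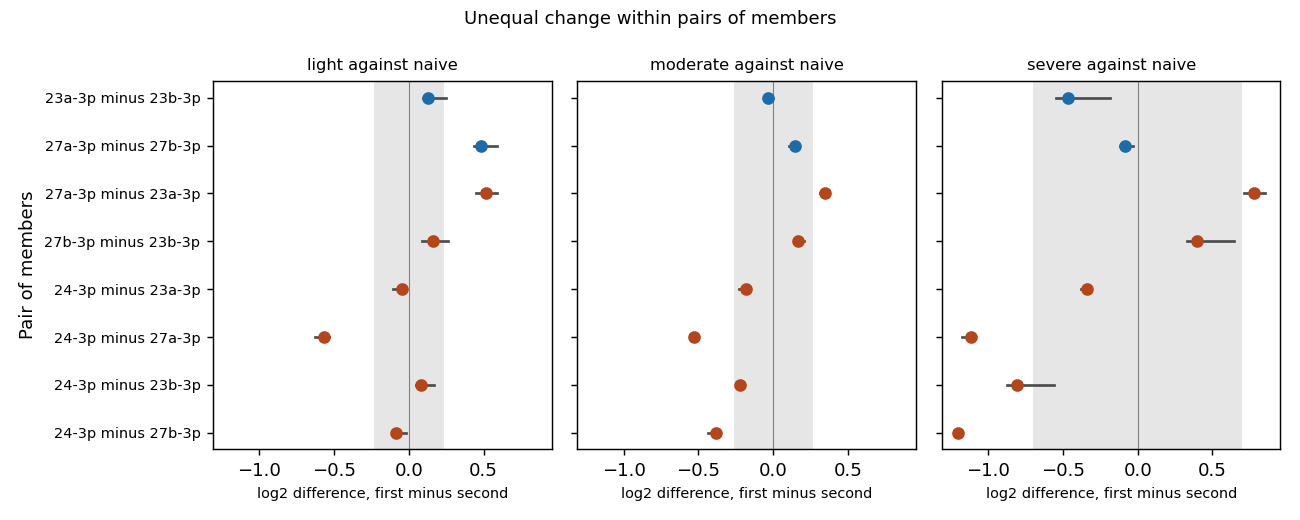
Difference between the log2 differences from naive of 2 members, for partners of the same seed (blue) and of the same cluster (red); black lines run over the 4 pairings of single probes, and the grey band holds 95% of the gaps between 2 probes of 1 miRNA. The pair miR-27a-3p with miR-23a-3p and the pair miR-24-3p with miR-27a-3p lie outside the band in all 3 panels.

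The arms of miR-24 were compared next. miR-24-2-5p, the 5′ arm of the chromosome 19 hairpin, gave sums of −6.26 ± 1.51 on naive, 6.03 ± 2.77 on light, 61.6 ± 2.63 on moderate and −1.52 ± 1.43 intensity units on severe. It was detected on the light, moderate and severe arrays by the scanner software, but its sum over 4 probes reached the floor on the moderate array alone. The floor of an array was its dimmest probe among those with a share of 0.5 or more of spots well above background, and lay at 13.1 to 16.0 intensity units. Scaled, moderate was at least 2.75-fold higher than naive (log2 1.46), and severe at least 1.68-fold lower than moderate. Since 4 probes are summed and the floor comes from 1, such bounds are not strict. The brightest probe by itself gave a bound of log2 0.95, under 2-fold.

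The signal of miR-24-2-5p came from 2 of its 4 probes. On the moderate array these read 25.9 ± 1.58 and 46.8 ± 1.48, with 5 of 5 spots well above background on each, while the other 2 probes read −9.12 and −1.92. The brightest probe read 9.51 ± 0.607 on naive, 15.9 ± 1.65 on light and 10.8 ± 0.774 on severe, with 0, 3 and 0 of 5 spots well above background. On the light array this probe thus also stood above the floor, which was 15.1 there. miR-24-3p, from the other arm, stood at 0.36 on the moderate array. The bound for miR-24-2-5p lay 1.10 above that (2.14-fold), and 0.69 above it with the brightest probe. It is set by the floor of the naive array and is not strict. As miR-24-2-5p was measured on the moderate array alone, the arms could not be compared on the other arrays.

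**Figure D4:**
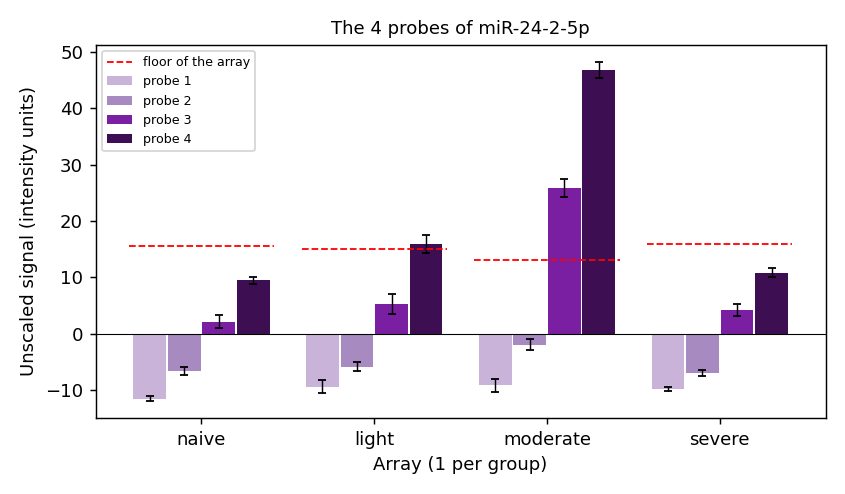
Unscaled signal of each of the 4 probes of miR-24-2-5p by array, with standard errors over its spots, and the floor of each array (red dashes). On the moderate array probe 3 and probe 4 stand above the floor, at 25.9 and 46.8 intensity units. Probe 4 also lies just above it on the light array, at 15.9 against 15.1, and probe 1 and probe 2 stay below 0 on all arrays.

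The other arms of the hairpins gave no signal above background. miR-24-1-5p, despite the 16 first bases it shares with miR-24-2-5p, had 0 of 20 spots well above background on each array, with sums of −36.8, −28.9, −30.8 and −30.8 intensity units. miR-23a-5p, miR-23b-5p, miR-27a-5p and miR-27b-5p likewise had 0 of 20 spots well above background on each array. Background-subtracted sums of these arms ran from −36.8 to −11.6. They were not detectable on these arrays, which is not evidence of absence.

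Marker miRNAs of other cell types also differed between the arrays. On the moderate array, where the sum of miR-24-2-5p reached the floor, miRNAs of smooth muscle and fibroblasts were also high: miR-143-3p, miR-199a-3p and miR-214-3p stood at 1.31, 1.28 and 1.35 above naive. The summed scaled signal of that list, with 3 of 4 miRNAs detected on each array and miR-145-5p on none, was 0.361 on naive, 0.442 on light, 0.895 on moderate and 0.170 on severe. The sum of the endothelial list was 0.128 on naive, 0.0693 on light, 0.129 on moderate and 0.0546 on severe, with 2, 1, 2 and 1 of its 2 miRNAs detected. That of striated muscle was 1.88, 1.18, 3.58 and 0.0948, with 3, 2, 3 and 1 of its 3 miRNAs detected. A miRNA that an array did not detect is left out of its sum. The red-cell list, with 3 or 4 of its 5 miRNAs detected, summed to 52.6, 67.9, 57.8 and 41.3 in the same order; miR-486 had no match among the array's names. Its miRNAs did not move together on the severe array. miR-451-5p lay at −0.30 from naive there, while miR-144-3p was 1.82 above naive (and 1.38 on light, −0.19 on moderate) and miR-144-5p at least 1.97 above. miR-122-5p, of liver, stood at 1.69, 0.372, 1.01 and 1.01 after scaling. The list of platelets and leukocytes, 3 miRNAs all detected, summed to 11.3, 15.8, 16.2 and 6.08. This sum is mostly miR-223-3p, with 14519 of 15405 unscaled units on the moderate array, and the miRNAs did not move together. From naive, miR-223-3p stood at 0.48, 0.63 and −0.91 on light, moderate and severe. miR-150-5p stood at −0.09, −0.57 and −3.11, and miR-142-3p at 0.79, −0.88 and 0.03. The part of these cell types in the members' values was not tested.

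The log2 difference of miR-451-5p minus that of miR-23a-3p, the haemolysis index, was 0.02 for light against naive, −0.40 for moderate and −0.36 for severe. On the arrays of day 49 miR-451-5p was thus lower in relation to miR-23a-3p than on the naive array. Under the 14 alternatives it lay between −0.41 and −0.17 for moderate and between −1.14 and −0.32 for severe, but scalings other than quantile normalization cancel in this difference. The moderate value exceeded the 95% yardstick of 0.26 used for partners, though not with quantile normalization (−0.17). The severe value lay within its yardstick of 0.69, though not with quantile normalization (−1.14).

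Among the 104 miRNAs measured on all 4 arrays, those nearest to a member over the 3 log2 differences from naive were mostly no members. miR-378b was nearest to miR-23a-3p, with a root mean square distance of 0.04, followed by miR-22-3p at 0.13. miR-484 and miR-30a-5p were nearest to miR-24-3p, at 0.09 and 0.12, and miR-320-3p and miR-15b-5p to miR-23b-3p, at 0.11 and 0.16. miR-500-3p was nearest to both miR-27 members, at 0.29 for miR-27a-3p and 0.15 for miR-27b-3p, followed by miR-130a-3p at 0.30 and miR-29a-3p at 0.22. miR-27b-3p was the second nearest of all miRNAs to miR-27a-3p, at 0.30. For miR-23a-3p the nearest member was miR-24-3p, in place 10, and for miR-24-3p it was miR-23a-3p, in place 16. miR-23b-3p and miR-27b-3p, of the chromosome 17 cluster, were each other's nearest member, at 0.27. miR-23b-3p was in place 5 for miR-27b-3p, and miR-27b-3p in place 8 for miR-23b-3p. These distances rest on 4 arrays that share the naive array, and are a description.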

How the data were processed

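Serum exosome RNA was profiled in 4 groups with 1 array each. The file headers name Agilent Feature Extraction 10.7.3.1 as the source of the deposited intensity values, which are background-subtracted, spatially detrended and not scaled between arrays. Version 9.1 is the one in the submitters' processing notes. All arrays are of 1 design, annotated on rn4, and share 1 scan time, per the file headers. The deposited files also hold detection calls and flags of 0 or 1, and total intensities per miRNA.

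The labels' labelling protocol describes cRNA amplification, which is made for messenger RNA; this was not resolved. Here, spots marked as outliers were left out (386 to 525 of 14380 spots), 0 spots were saturated, and the spot signals of each probe were averaged. Members have 2 or 4 probes, whose means were added up. Scaling was to the 75th percentile over 111 miRNAs (666, 356, 954 and 415 intensity units for naive, light, moderate and severe), followed by log2. Measured means detected and at or above the floor; where 1 of 2 arrays measured a miRNA, the difference is a bound. A call means at least 2-fold. The calculation was tested on simulated data. Python 3.11.15 with pandas 2.3.3 was used, and limma 3.58.1 for normexp with an offset of 50.

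Named miRNAs were all members, the other arms of their hairpins, marker lists, and for each member measured on all arrays the 2 other miRNAs at the smallest root mean square distance. Members, lists and alternatives were chosen with earlier results of these data known. RefSeq coordinates and neighbours refer to GRCr8, not to the array's annotation. Precision is limited by the number of arrays.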

Additional observations from a re-analysis of the deposited data

Results flagged for a closer look

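miR-24-3p lay below naive on the severe array (log2 −0.28) and above naive on the light (0.32) and moderate (0.36) arrays, so that tumour arrays went in opposite directions. Each direction rests on 1 array, and the difference between them was not tested. The standard error over spots was 0.02 for each value and does not cover the spread between rats. The severe value was below 0 under all 14 alternatives. The light value was also below 0 under median scaling (−0.01), without scaling (−0.58), with spike-in scaling (−0.55), with quantile normalization (−0.16) and with the brightest probe (−0.05), and the moderate value with quantile normalization (−0.16).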

How the results depend on the processing

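Each count of members past 2-fold was recomputed under 14 alternatives, of which one, a scaling that leaves the severe array out of the choice of miRNAs, was added after the values were seen, as were the single-probe pairings of partners. Of 112 such counts 98 were the same or within 1.5 times. The main count was 0 except for members higher in moderate against naive, so this mostly means that 0 stayed 0. For moderate against naive the count of members higher, 1, became 5 without scaling, 6 with spike-in scaling, and 0 with quantile normalization, normexp, the brightest probe and the series' value table, which holds 5 of the 6 members. For light against naive, 0 became 1 with the floor at the lowest summed signal and with the software's total signal. For severe against naive, 0 higher became 1 with detection by spots well above background and 2 with the value table. For severe against moderate, 0 lower became 6 without scaling, 3 with spike-ins, and 1 with the lowest summed floor and with the software's total signal. Normexp gave no bound for miR-24-2-5p on the moderate array, and its offset of 50 units per spot by construction makes unscaled folds smaller. After scaling, normexp made some differences larger in size, such as miR-24-3p for severe against moderate (−0.83 in place of −0.64). Others became smaller, such as miR-27b-3p for severe against naive (0.63 in place of 0.93). The members' median for severe against naive, 0.53, was −0.15 without scaling, and that for light, 0.37, was −0.53 without scaling, −0.51 with spike-in scaling and −0.01 with the brightest probe. Of 512 partner values 9 had another sign, 5 with quantile normalization and 4 with normexp. Scalings other than quantile normalization cancel in a partner value, and the settings of detection and floor left it unchanged. Under those settings a sign could not turn. Scaling by the 75th percentile of all miRNAs gave no values, since that percentile was below 0 on the light array (−0.74). No paired analysis was possible because each group has 1 array. No array could be left out for the same reason.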
